A study of Mus musculus with 9 samples.

Results

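The genes described here are Hmgcs1, Idi1, Fdps, Fdft1, Sqle and Lss, which encode enzymes of cholesterol synthesis, and Insig1, which encodes a regulator of that pathway. They were listed by name as genes under the control of SREBP2 and were found by matching the Ensembl identifiers of the deposited table to mouse symbols. All 7 were present among the 14461 genes of the table, and all 7 passed the filter on low values. None of the 7 encodes a receptor for cholesterol uptake, so the set is a synthesis set with its regulator. It was chosen with earlier results of these data known, as a set whose members move in mixed directions.

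RNA was sequenced from LSK cells, the immature blood-forming fraction of bone marrow, which is negative for lineage markers and positive for Sca-1 and c-Kit. All cells were sorted from the marrow of parabiotic mice, pairs that are surgically joined and share a circulation, and the series design concerns LSK cells that reached the marrow of an irradiated partner through the blood. The 9 libraries fell into 3 groups of 3: circulating LSK cells (strain label C57BL/6), irradiated LSK cells (C57BL/6) and endogenous LSK cells (B6SJL CD45.1). The samples carry no age, time or dose, and the labels leave unsaid whether each library had its own mouse pair, so the tests weigh differences only against library-to-library spread, which may be technical. The strain label changes together with the group in both comparisons with endogenous cells, so strain and group cannot be told apart there. Which mouse of a pair the circulating cells were born in was not tested here.

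Cells make cholesterol from acetyl-CoA through mevalonate, the isoprenoid farnesyl diphosphate and squalene. When sterols are scarce in the endoplasmic reticulum, the escort protein SCAP carries SREBP2 to the Golgi, where proteases release a fragment that enters the nucleus and switches on the genes of synthesis and uptake. INSIG1 holds SCAP back when sterols are plentiful and is itself a target of SREBP2. In blood-forming cells, cholesterol levels are known to bear on the proliferation and mobilisation of stem and progenitor cells, with efflux through ABCA1 and ABCG1 as a restraint.

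Promoters are shown because SREBP2 control is what the 7 genes were listed for. Entries for Hmgcs1, Idi1, Insig1 and Lss were matched in the RefSeq promoter table (GRCm38.p6). Fdps, Fdft1 and Sqle had none. The 250 bases before the start were searched on both strands for TCACNCCAC, a form of the sterol regulatory element, for TCACGTGA, an E-box form that SREBP proteins bind, and for CCAAT, which NF-Y binds beside SREBP. The motifs share no matched base in these promoters. Hmgcs1 held TCACCCCAC, and this element stood in 1 of the 4 promoters and in 1.05% of the 32851 promoters of the table. TCACGTGA stood in 0 of the 4 and in 0.785% of all. CCAAT stood in 4 of 4, always on the opposite strand to the gene (read as ATTGG), and in 33.8% of all. A match describes letters, not a bound site. The starts used here are those of the promoter table. The windows of Idi1, Insig1 and Lss end past the gene starts given below, which come from GENCODE M21. The CCAAT matches of Idi1 lie past its GENCODE start. Below, capitals mark the matches in the promoter that holds the sterol element (Hmgcs1, chr13:119690101-119690350, plus strand) and, for contrast, in 1 that holds only CCAAT (Lss, chr10:76531355-76531604, plus strand).
Hmgcs1: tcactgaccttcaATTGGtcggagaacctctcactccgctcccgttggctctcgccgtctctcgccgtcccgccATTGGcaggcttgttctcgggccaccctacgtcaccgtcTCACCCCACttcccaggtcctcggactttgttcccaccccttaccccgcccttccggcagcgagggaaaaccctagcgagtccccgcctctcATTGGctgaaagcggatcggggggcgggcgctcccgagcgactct
Lss: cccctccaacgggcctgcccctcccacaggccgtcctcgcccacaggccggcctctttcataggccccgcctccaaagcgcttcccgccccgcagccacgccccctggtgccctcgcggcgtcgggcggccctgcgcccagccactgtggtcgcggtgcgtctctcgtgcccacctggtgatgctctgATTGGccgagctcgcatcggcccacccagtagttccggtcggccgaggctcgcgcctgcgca

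All values are deposited normalised values, which are estimated read counts divided by a scaled library size and lie close to a per-million scale. Libraries held 14065855 to 27012345 recovered estimated counts. The 7 genes had from 257 counts (Insig1 in circulating replicate 2) to 3261 counts (Fdps in circulating replicate 3) in a library. The median SD of a tested gene was 0.382 log2 units in circulating, 0.213 in irradiated and 0.262 in endogenous libraries, so the circulating libraries varied most. The markers of the gate were present in all libraries, with Kit at 328 to 410 in the circulating group, 562 to 622 in the irradiated group and 737 to 1011 in the endogenous group, a lower level in circulating than endogenous cells (-1.20, limma adjusted p = 0.00257). Ly6a stood at 127 to 146, 159 to 202 and 169 to 194 in the same groups. It was lowest in the circulating libraries, but its difference of -0.39 from endogenous cells did not pass (limma adjusted p = 0.0923). Differences were tested with limma on log2(value + 1), with Benjamini-Hochberg adjustment over all 13771 genes tested and a call under 0.05. In bulk libraries, fewer cells that express a gene and less RNA per cell cannot be told apart.

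Fdps was the only one of the 7 that passed the test in any comparison. It encodes farnesyl diphosphate synthase, which makes the isoprenoid from which both squalene and the lipid anchors of prenylated proteins derive, and lies on chromosome 3 from 89093588 to 89101959 (GRCm38, minus strand). Fdps stood at 84.2, 120.4 and 184.7 in circulating replicates 1, 2 and 3, at 113.6, 82.7 and 101.5 in irradiated replicates 1, 2 and 3, and at 73.1, 50.9 and 47.6 in endogenous replicates 1, 2 and 3. Every circulating and every irradiated library lay above every endogenous one, while circulating and irradiated libraries overlapped. Fdps rose to 129.8 ± 50.9 in circulating cells, against 57.2 ± 13.8 in endogenous cells (SD, n = 3 each; log2 fold change 1.12 with SE 0.27, 95% interval 0.53 to 1.71, limma adjusted p = 0.0305). Against the irradiated cells, at 99.2 ± 15.6, the circulating cells differed by 0.32 (interval -0.27 to 0.91, limma adjusted p = 0.675). The irradiated cells stood 0.80 above the endogenous cells (interval 0.21 to 1.39), which did not pass (limma adjusted p = 0.187).

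The Fdps call was close to the threshold and depended on how spread was shared. It ended without circulating replicate 3 (limma adjusted p = 0.0753), irradiated replicate 3 (0.0518) or endogenous replicate 1 (0.0516), 2 (0.0945) or 3 (0.0932), with sample weights (0.0537) and when the circulating and endogenous libraries were fitted alone (0.0811), and these last settings called the irradiated difference instead (0.0429 with sample weights and 0.0403 with the irradiated and endogenous libraries alone). Fdps also shares sequence with other genes: processed pseudogenes match it over up to 1066 bases, the closest at 98.9% identity over 1062 bases. The overlapping protein-coding gene Gm43738 on the same strand is identical to it over a stretch of 929 bases. Matches to Gm43738 cover 1128 of the 1382 transcript bases of Fdps. None of these has a row in the table, and how the counting divided their reads is not given in the sources used here.

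Marker sums of myeloid progenitors, mitosis and several other lineages stood higher in every circulating library than in any endogenous one, as Fdps did. The summed level of 11 myeloid progenitor markers (Mpo, Elane, Prtn3 and others) was 13020, 24810 and 39410 in circulating replicates 1, 2 and 3, 12310, 7790 and 16330 in irradiated replicates, and 3151, 2216 and 2419 in endogenous replicates. Within the circulating group the sums ran in the order of Fdps, and within the irradiated and endogenous groups they did not. Mpo alone, at 9410, 17263 and 28138 in circulating replicates 1, 2 and 3, made up most of each sum there. Irf8, Gfi1 and Cebpe of the same list did not run in the order of Fdps in that group. Of these markers, 6 of the 10 tested rose in circulating against endogenous cells, where 5.33% of all tested genes rose and 3.3% fell. The same shares stand beside the marker counts that follow. The sum of 7 monocyte and macrophage markers was 515 to 1616 in circulating, 349 to 788 in irradiated and 159 to 259 in endogenous libraries, and 2 of 6 tested rose. Ly6c2 made up most of the circulating sums. C1qa and C1qb went the other way, at -0.95 and -0.80 in circulating against endogenous cells, and did not pass (limma adjusted p = 0.117 and 0.273). Of 10 mitosis genes 9 rose. Their sums were 3148, 2511 and 4007 in circulating replicates 1, 2 and 3, 3057, 2590 and 3110 in irradiated replicates and 1666, 1742 and 1612 in endogenous replicates. Within no group did these sums run in the order of Fdps. Stem cell markers (Hlf, Procr and others, 5 measured) ran the other way, at 127 to 206 in circulating, 268 to 288 in irradiated and 380 to 463 in endogenous libraries, and 3 of 5 fell. Sums of T and NK markers, largely Nkg7, were 520, 771 and 912 in circulating replicates 1, 2 and 3 and 231 to 285 in endogenous libraries. Mast and basophil sums were 123, 511 and 803 against 93.1 to 108, and B lineage sums 107, 295 and 227 against 71.6 to 102. These T and NK and mast and basophil sums, and the erythroid sums given below, ran in the order of Fdps within the circulating group. Mature neutrophil and dendritic sums overlapped between circulating and endogenous cells, but single markers of both lists passed. Of 4 dendritic markers tested 2 rose, Xcr1 (57.6 against 5.86) and H2-Aa (436 against 103). Flt3, of the same list, differed by -0.73 and did not pass (limma adjusted p = 0.1085). Of 7 mature neutrophil markers 1 fell, Mmp8 (11.7 against 70.4), and 0 rose. No marker of these lists was under 1 in all libraries. The part of these shifts in the Fdps result was not tested.

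**Figure D1:**
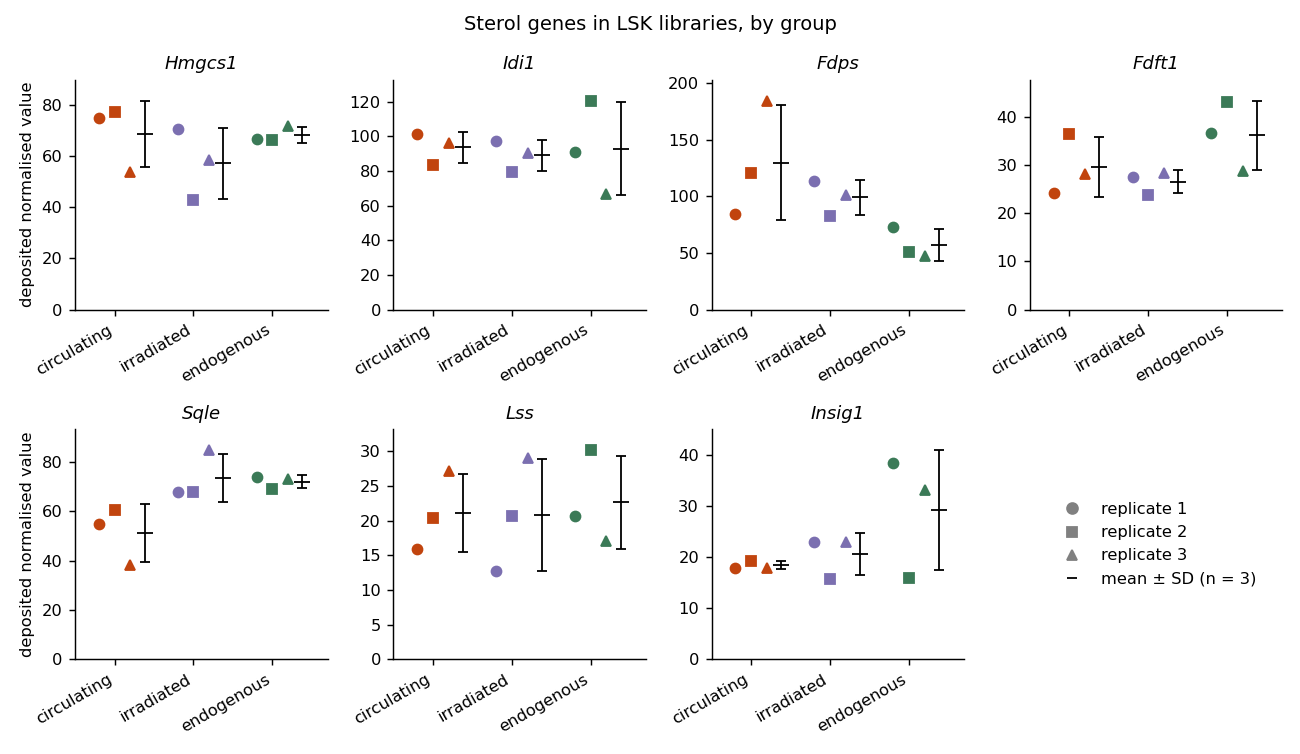
Deposited normalised values of the 7 sterol genes (vertical axes, each starting at 0) in the 9 LSK libraries, by group. Symbols are replicates and the bars to their right are the mean ± SD of 3 libraries; Fdps stands above every endogenous library in circulating and irradiated cells, and Sqle is lowest in the 3 circulating libraries.

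Sqle did not pass in any comparison, although its circulating libraries stood apart, as those of 27.5% of all tested genes did against endogenous cells. It encodes squalene epoxidase, the oxygen-requiring enzyme that commits squalene to sterols, and lies on chromosome 15 from 59315077 to 59331192 (plus strand). Sqle stood at 54.8, 60.7 and 38.2 in circulating replicates 1, 2 and 3, at 67.7, 68.0 and 84.8 in irradiated replicates and at 73.8, 69.3 and 73.2 in endogenous replicates. All 3 circulating libraries lay below all 6 others, and irradiated and endogenous libraries overlapped. Neither difference passed after adjustment: it was -0.51 against endogenous cells (interval -0.93 to -0.09, unadjusted p = 0.0218, limma adjusted p = 0.119) and -0.53 against irradiated cells (interval -0.95 to -0.11, unadjusted p = 0.0181, limma adjusted p = 0.353). Irradiated and endogenous cells differed by 0.02 (interval -0.40 to 0.44), an interval that still allows a modest change in either direction.

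Scaling between libraries cancels in a ratio of 2 genes within a library, but a ratio does not show which gene moved. The ratio of Fdps to Sqle, both per kilobase of exon, was 2.03, 2.62 and 6.37 in circulating replicates 1, 2 and 3. It was 2.21, 1.60 and 1.58 in irradiated replicates and 1.3, 0.968 and 0.857 in endogenous replicates. The endogenous ratios were the 3 lowest of the 9, and the circulating and irradiated ratios overlapped. Sqle differed by 0.02 between irradiated and endogenous cells, so the ratios there differ mainly through Fdps. This ratio was chosen after the values were seen and carries no test.

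The other enzymes did not pass in any comparison. Hmgcs1 encodes the cytosolic synthase of HMG-CoA, a step before mevalonate, and lies on chromosome 13 from 119690379 to 119708260 (plus strand). It stood at 75.1, 77.4 and 53.7 in circulating replicates 1, 2 and 3, at 70.5, 42.8 and 58.5 in irradiated replicates and at 66.9, 66.3 and 71.8 in endogenous replicates. The circulating libraries spanned the endogenous ones, and the difference of -0.01 had an interval of -0.47 to 0.45. The promoter with the sterol element shown above thus belongs to a gene whose group means were 68.7 in circulating cells, 57.3 in irradiated cells and 68.3 in endogenous cells.

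Idi1 encodes the isomerase that supplies dimethylallyl diphosphate to Fdps and lies on the same chromosome 13, from 8885501 to 8892451 (plus strand). It stood at 101.1, 83.6 and 96.1 in circulating replicates, at 97.3, 79.5 and 90.1 in irradiated replicates and at 91.1, 120.6 and 66.7 in endogenous replicates. The endogenous libraries included both the highest and the lowest value of the 9. The difference between circulating and endogenous cells was 0.05 (interval -0.40 to 0.49). Processed pseudogenes match Idi1 at 100% over 684 bases (Gm13502) and at 97.7% over 681 bases (Gm35570), and neither has a row in the table.

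Fdft1 encodes squalene synthase, which turns farnesyl diphosphate towards sterols, and lies on chromosome 14 from 63145150 to 63179578 (minus strand). It stood at 24.2, 36.5 and 28.2 in circulating replicates, at 27.5, 23.9 and 28.4 in irradiated replicates and at 36.8, 43.2 and 28.8 in endogenous replicates. The irradiated libraries lay below all endogenous ones by a narrow gap, with a difference of -0.42 (interval -0.93 to 0.09, limma adjusted p = 0.444), while circulating libraries overlapped both groups. A stretch of 774 bases of the locus overlaps the protease gene Ctsb on the opposite strand, which stood at 312.9 to 446 in circulating, 248.7 to 316.8 in irradiated and 255.1 to 331.6 in endogenous libraries. The library chemistry does not mark strand, so reads of the shared stretch cannot be assigned to either gene.

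Lss encodes lanosterol synthase, which closes the sterol rings, and lies on chromosome 10 from 76531588 to 76557138 (plus strand). It stood at 15.9, 20.4 and 27.1 in circulating replicates, at 12.8, 20.7 and 29.1 in irradiated replicates and at 20.8, 30.2 and 17.1 in endogenous replicates. The groups overlapped throughout, and the spread within each group was wider than any difference of means. The difference of -0.09 between circulating and endogenous cells had an interval of -0.84 to 0.65, the widest among the 7 genes in that comparison, so a change of moderate size in either direction was not detectable.

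Insig1, on chromosome 5 from 28071363 to 28078662 (plus strand), was the regulator of the set. It stood at 17.9, 19.4 and 18.0 in circulating replicates, at 23.0, 15.8 and 23.0 in irradiated replicates and at 38.5, 16.0 and 33.3 in endogenous replicates. Of the endogenous libraries, replicates 1 and 3 exceeded all other libraries and replicate 2 was lower than all circulating ones. Insig1 averaged 18.4 ± 0.805 in circulating cells, against 29.3 ± 11.8 in endogenous cells (a difference of -0.55, interval -1.25 to 0.15, limma adjusted p = 0.297). Without endogenous replicate 2 the difference was -0.92, and it did not pass there either.

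As a set the 7 genes did not move together. They were listed as genes that move in mixed directions, so their mixed signs are not a separate result. In circulating against endogenous cells 1 of 7 rose, where 5.33% of all tested genes rose and 8.63% were called in either direction, and 2 fold changes were positive and 5 negative. The groups did not overlap for 2 of the 7, Fdps and Sqle, against 27.5% of all tested genes, so that share was near the background. The median fold change was -0.09, against -0.04 over all tested genes. In circulating against irradiated cells 0 of 7 were called (0.029% of all tested genes, 0.0218% higher and 0.00726% lower), with a median of 0.07 against -0.02. Only Sqle kept these groups apart, where 16.7% of all genes did (7.46% higher and 9.26% lower). At an unadjusted p under 0.05, limma found 1 of the 7, Sqle, and 11.4% of all genes. In irradiated against endogenous cells 0 of 7 were called (0.603% of all, 0.472% higher and 0.131% lower), with a median of -0.15 against -0.01. Fdps and Fdft1 kept these groups apart, against 27.7% of all genes, and at an unadjusted p under 0.05 limma found 1 of the 7, Fdps, and 14.9% of all genes. The 3 comparisons share libraries in pairs and are not independent.

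**Figure D2:**
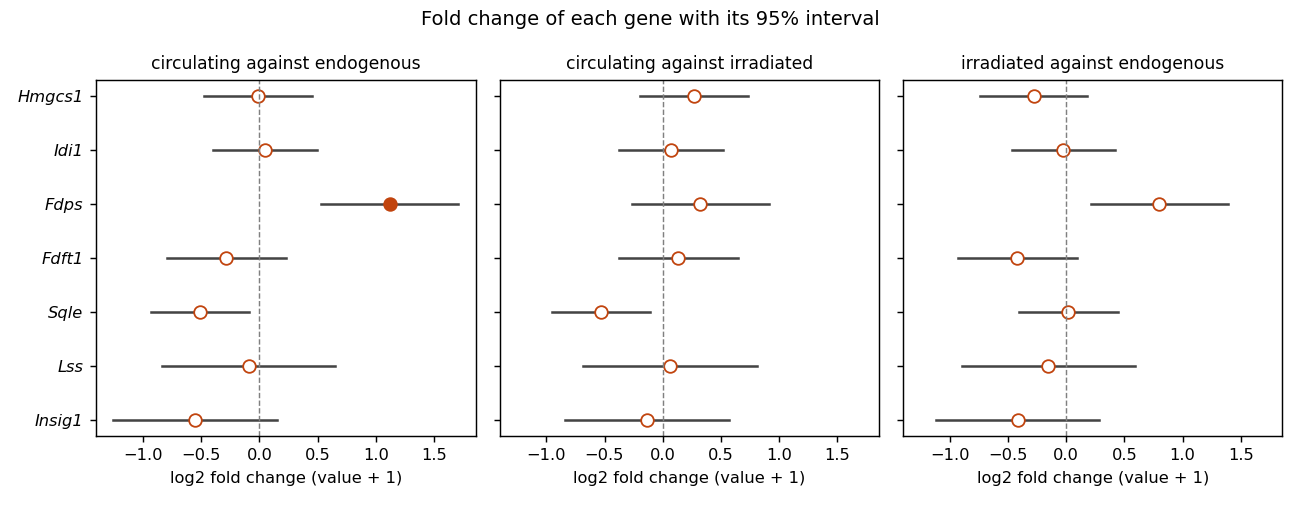
Log2 fold change on the log2(value + 1) scale (horizontal axes) of each of the 7 genes in the 3 comparisons, higher in the group named before "against" when positive. Lines are 95% intervals from limma and a filled point passed the test, which Fdps did at 1.12 in circulating against endogenous cells; for Sqle both comparisons of circulating cells lie below 0.

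Per kilobase of exon, Idi1 and Fdps were the most abundant of the 7 and Lss the least. Over all 9 libraries the normalised value per kilobase averaged 26.2 ± 4.30 for Idi1, 22.7 ± 9.95 for Fdps, 14.1 ± 2.44 for Hmgcs1, 11.8 ± 2.39 for Sqle, 7.36 ± 2.58 for Insig1, 7.30 ± 1.54 for Fdft1 and 1.998 ± 0.562 for Lss (SD, n = 9). Neighbours in this order overlapped in range except Fdft1 and Lss. Within libraries, Idi1 exceeded Fdps in 7 of 9, Fdps exceeded Hmgcs1 in 7, Hmgcs1 exceeded Sqle in 7, Sqle exceeded Insig1 in 9 and Insig1 exceeded Fdft1 in 5. In circulating cells Fdps, at 30.8 ± 12.1, had a higher mean than Idi1, at 26.7 ± 2.58, whereas in endogenous cells Fdps, at 13.6 ± 3.29, was below Idi1, at 26.5 ± 7.70, and below Hmgcs1, at 14.9 ± 0.656. The order of Fdps and Idi1 also depends on the length used, since per kilobase of its longest transcript Fdps came before Idi1.

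The patterns of the 7 genes over the 9 libraries were compared by the root mean square difference of their centred log2(value + 1). Fdps varied most, with a root mean square of 0.573 around its own mean, and Idi1 least, at 0.223. The closest pair was Fdft1 and Idi1, at 0.278, and Idi1 ranked 1084 among the tested genes by closeness to Fdft1. The farthest were Fdps and Sqle, at 0.803. The genes nearest to Fdps were Ctsz (0.144), Cpd (0.147) and P4hb (0.153), and near Sqle were Arhgef2 (0.116) and H1f0 (0.124). Hmgcs1 lay nearest to Usp37 (0.133), Idi1 to Tpp1 (0.0997) and Fdft1 to Snora28 (0.0581), Aqr (0.181) was near Lss, and the gene nearest to Insig1 was an unnamed one (ENSMUSG00000101828, 0.187), followed by Blcap (0.2). These distances describe the same 9 libraries that gave the values above.

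Sterol synthesis as a whole was examined as a list of 22 genes that includes the 6 enzymes above and Erg28, a scaffold of the sterol enzymes (known from yeast). Fdps was the 1 of 22 that rose in circulating against endogenous cells and 0 fell, near the share of all tested genes (5.33% higher and 3.3% lower). With 11 positive and 11 negative fold changes, the median was 0.02 against -0.04 over all genes. Lbr, which encodes a sterol reductase that also anchors chromatin to the nuclear envelope, stood at 609 ± 132 in circulating cells, 589 ± 67.4 in irradiated cells and 371 ± 157 in endogenous cells (0.81 for circulating against endogenous, limma adjusted p = 0.110). Erg28 and Acat2 were near even, at 0.07 and -0.02 in the same comparison.

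Some enzymes that did not pass still kept circulating and endogenous cells apart, and are named after their values were seen. Mvk, mevalonate kinase, stood at 11.8 ± 0.756 against 5.97 ± 1.34, Nsdhl, a sterol dehydrogenase, at 49.6 ± 7.0 against 32.9 ± 2.01, and Ebp, a sterol isomerase, at 70.7 ± 2.83 against 52.5 ± 9.48, with limma adjusted p between 0.0767 and 0.130. Like Sqle, Msmo1 and Dhcr7 were lower in all circulating libraries. Msmo1, a sterol methyl oxidase, stood at 45.6 ± 9.58 against 73.0 ± 17.1 (limma adjusted p = 0.0767). Dhcr7, the reductase of the last step in 1 branch, stood at 16.5, 19.5 and 25.3 in circulating replicates 1, 2 and 3, at 35.9 to 39.6 in irradiated libraries and at 31.8 to 33.4 in endogenous libraries (-0.66 against endogenous cells, limma adjusted p = 0.0748, and -0.87 against irradiated cells, limma adjusted p = 0.199). Of the 22, 8 kept circulating and endogenous cells apart, 5 higher and 3 lower, against 27.5% of all genes.

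**Figure D3:**
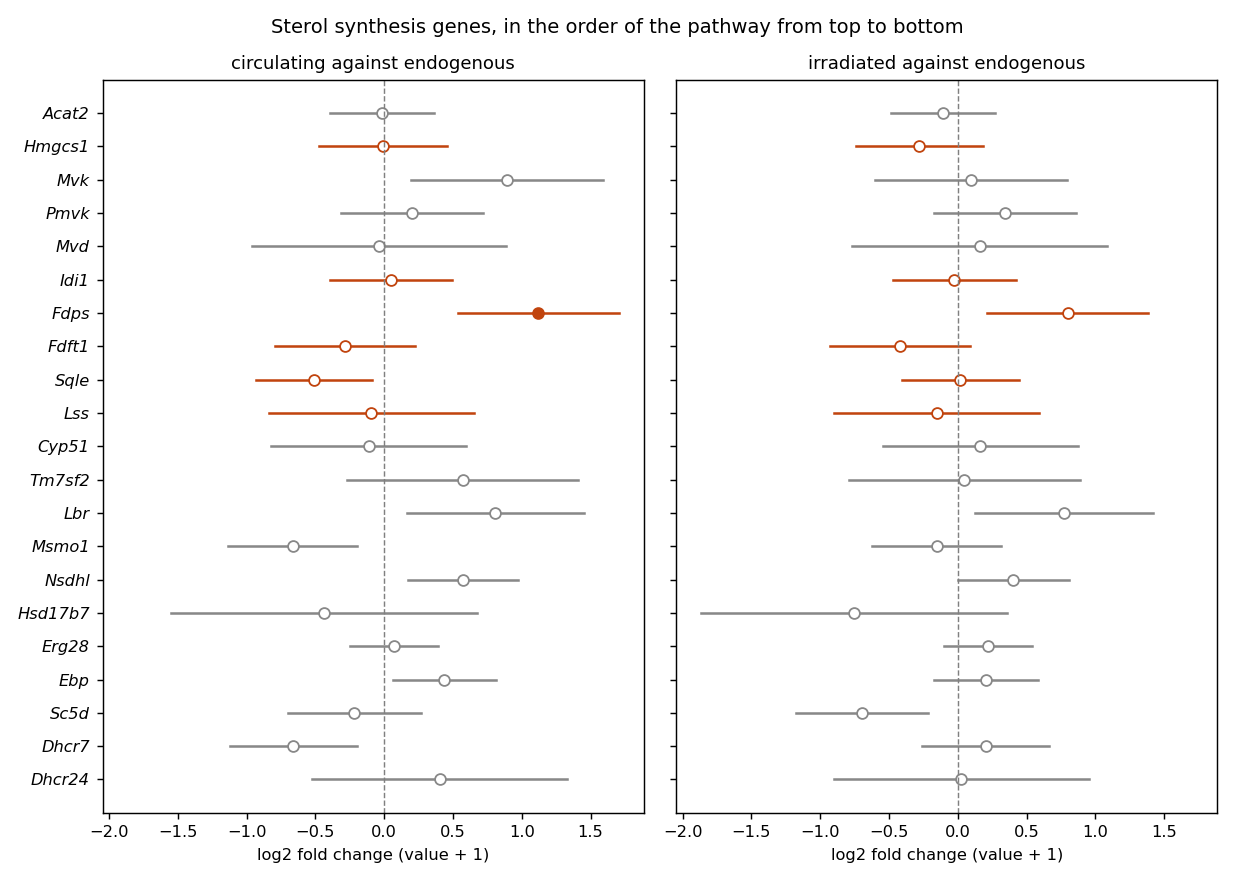
Log2 fold change on the log2(value + 1) scale (horizontal axes) with 95% limma intervals for 21 of the 22 genes of sterol synthesis, from the start of the pathway at the top to its end at the bottom. The 6 enzymes described in full are drawn in red and the others in grey, a filled point passed the test, and Fdps at 1.12 in circulating against endogenous cells is the only one filled.

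Of 13 genes that control SREBP, Mbtps2 was the 1 called in circulating against endogenous cells, where 3.3% of all tested genes fell and 5.33% rose. It encodes the site-2 protease, which makes the last cut that frees SREBP. Mbtps2 stood at 13.3, 7.79 and 10.2 in circulating replicates, at 18.8, 20.6 and 19.0 in irradiated replicates and at 18.4, 26.9 and 24.1 in endogenous replicates (-1.09 ± 0.27 SE on the log2 scale, with a limma adjusted p = 0.0346). All circulating libraries lay below all others, and the call ended when any of 8 of the 9 libraries was left out (limma adjusted p up to 0.109), with voom (0.0507), with sample weights (0.0788) and with the 2 groups fitted alone (0.111). Mbtps1, the site-1 protease, stood at 75.7 ± 17.0, 78.5 ± 3.72 and 109 ± 18.2 in circulating, irradiated and endogenous cells. Srebf2, which encodes SREBP2, stood at 95.8 ± 26.9, 95.3 ± 4.42 and 118 ± 23.5 in the same groups, and Srebf1 at 72.2 ± 5.02, 93.4 ± 7.36 and 71.4 ± 35.0. Ufd1, which acts in the degradation of ER proteins, stood at 91.9 ± 12.8, 82.8 ± 9.45 and 87.5 ± 8.93 in the same groups. None of these 4 passed.

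Of 16 measured genes of uptake and transport, 1 rose and 1 fell in circulating against endogenous cells, near the share of all tested genes (5.33% higher and 3.3% lower). Npc1, which moves cholesterol out of lysosomes, fell to 23.2 ± 4.97 in circulating cells, against 43.3 ± 6.07 in endogenous cells (-0.88 ± 0.22 SE on the log2 scale, with a limma adjusted p = 0.0341), and this call ended when any of 8 of the 9 libraries was left out (up to 0.103), with sample weights (0.0742) and with the 2 groups fitted alone (0.104). Scarb1, the HDL receptor, stood at 136 ± 42.0 in circulating cells, 149 ± 30.9 in irradiated cells and 89.1 ± 6.23 in endogenous cells, which did not pass. Npc2, a partner of Npc1 in the lysosome, differed by 0.36 between circulating and endogenous cells, Gramd1a, a sterol carrier, by -0.55 and Vldlr, a lipoprotein receptor, by -1.28, and none passed (limma adjusted p = 0.108, 0.313 and 0.0992).

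Cd36, a scavenger receptor for oxidised LDL and fatty acids, rose in circulating cells. It stood at 23.7, 66.1 and 19.5 in circulating replicates 1, 2 and 3, at 5.47, 3.92 and 5.02 in irradiated replicates and at 3.09, 3.86 and 1.95 in endogenous replicates. Every circulating library was above every other (3.06 ± 0.44 SE on the log2 scale against endogenous cells, with a limma adjusted p = 0.00584), and circulating replicate 2 was the highest. The difference of 2.49 from irradiated cells did not pass (limma adjusted p = 0.0968). Cd36 is expressed by monocytes, platelets and erythroid cells. Erythroid marker sums were 172, 445 and 873 in circulating replicates 1, 2 and 3 and 131 to 164 in endogenous libraries. Of 7 erythroid markers 2 rose (5.33% of all tested genes did), while Hba-a1 and Hbb-bs differed by -0.80 and -2.11 and did not pass. Megakaryocyte marker sums were 115, 303 and 180 in circulating replicates and 325 to 477 in endogenous libraries, with 1 of 5 falling (3.3% of all tested genes did). Unlike Cd36, the erythroid and the monocyte and macrophage sums were highest in circulating replicate 3. Megakaryocyte, dendritic, B lineage and mature neutrophil sums were highest in replicate 2, as were Ccr2 (344) and Adgre1 (16.3). The part of these markers in the Cd36 result was not tested.

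Of 10 measured genes of cholesterol efflux, storage and oxysterol handling, 3 fell and 0 rose in circulating against endogenous cells, where 3.3% of all tested genes fell and 5.33% rose. Fold changes were positive for 4 and negative for 6, with a median of -0.32 against -0.04 over all genes. Abca1, the transporter that exports cholesterol and a target of the LXR receptors, stood at 24.8, 10.5 and 9.31 in circulating replicates, at 26.4, 24.1 and 22.2 in irradiated replicates and at 54.0, 43.7 and 54.7 in endogenous replicates. Circulating replicate 1 lay among the irradiated libraries and replicates 2 and 3 below them, and all 6 lay below the endogenous ones (-1.83 ± 0.32 SE on the log2 scale for circulating against endogenous, with a limma adjusted p = 0.0105). Nceh1, which hydrolyses cholesterol esters, stood at 66.2, 54.0 and 54.2 in circulating replicates, at 85.6, 74.4 and 78.9 in irradiated replicates and at 146.1, 177.2 and 106.6 in endogenous replicates (-1.26 ± 0.19 SE on the log2 scale, with a limma adjusted p = 0.00672). Its 3 groups did not overlap, with irradiated libraries in between. The Abca1 and Nceh1 calls held when any 1 of the 9 libraries was left out (limma adjusted p up to 0.0489 and 0.0357).

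Cyp7b1, an oxysterol hydroxylase, fell to 2.27 ± 1.67 in circulating cells, against 12.3 ± 5.02 in endogenous cells, with irradiated cells at 5.15 ± 1.29 (-2.05 ± 0.45 SE on the log2 scale, with a limma adjusted p = 0.0232). This call ended without circulating replicate 3 (0.0652) and without endogenous replicate 1 (0.0919) or 2 (0.0799), with voom (0.0595), with sample weights (0.0501) and with the 2 groups fitted alone (0.0752), and the difference was -1.35 with a pseudocount of 4. Abcg1, the other main efflux transporter, stood at 23.0 ± 10.3 in circulating cells, 27.4 ± 1.5 in irradiated cells and 36.7 ± 4.49 in endogenous cells, which did not pass (-0.76 for circulating against endogenous, limma adjusted p = 0.159). Apoe, the apolipoprotein that accepts exported cholesterol, ranged from 41.1 to 319 among circulating libraries, more widely than from 117 to 162 over the 6 others, and did not pass. The esterifying enzyme Soat1 was on the other side, at 68.8 ± 24.9 in circulating cells, 46.7 ± 11.9 in irradiated cells and 38.1 ± 12.0 in endogenous cells (0.81 for circulating against endogenous, unadjusted p = 0.0316, limma adjusted p = 0.145). Soat2, named after its values were seen, differed by 0.81 with no overlap between these groups (limma adjusted p = 0.221), and Nr1h2, an LXR receptor, by 0.20 (limma adjusted p = 0.617). For Abca1, Nceh1 and Cyp7b1 the irradiated libraries also lay below all endogenous ones, with differences of -1.03, -0.81 and -1.05, none of which passed (limma adjusted p = 0.162, 0.0869 and 0.308).

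Fatty acid synthesis, which SREBP1 governs, had 3 of 10 measured genes lower in circulating against endogenous cells and 0 higher, where 3.3% of all tested genes were lower and 5.33% higher. Fold changes were positive for 2 and negative for 8, with a median of -0.32 against -0.04 over all genes. Fasn, fatty acid synthase, stood at 41.0, 37.7 and 42.4 in circulating replicates, at 72.9, 55.1 and 81.2 in irradiated replicates and at 84.4, 66.1 and 75.7 in endogenous replicates (-0.88 ± 0.18 SE on the log2 scale, with a limma adjusted p = 0.0198). All circulating libraries lay below all 6 others, as for Sqle, and the difference from irradiated cells, -0.76, did not pass (limma adjusted p = 0.198). Acss2, which makes acetyl-CoA from acetate, fell to 35.7 ± 8.34 in circulating cells, against 71.2 ± 5.78 in endogenous cells (-1.0, limma adjusted p = 0.0429). Elovl6, a fatty acid elongase, fell to 47.1 ± 3.23, against 75.3 ± 5.43 in endogenous cells (-0.67, limma adjusted p = 0.04999). The Fasn call ended without endogenous replicate 1 (0.0784) or 3 (0.0569), the Acss2 call when any of 7 libraries was left out (up to 0.133) and the Elovl6 call when any of 8 was (up to 0.151). With sample weights and with the 2 groups fitted alone all 3 calls ended (0.055 and 0.0579 for Fasn, 0.112 and 0.0667 for Acss2, 0.139 and 0.0946 for Elovl6), and the Elovl6 call also ended with a pseudocount of 0.5 (0.0506), with no filter on low values (0.0531) and with voom (0.0664). Acly, the main source of cytosolic acetyl-CoA, stood at 229.5 ± 34.0 in circulating and 236.5 ± 17.7 in endogenous cells (-0.05, interval -0.36 to 0.26). Elovl5, another elongase, differed by 0.28, Scd2, a desaturase, by -0.29 and Fads1, a desaturase of longer chains, by -0.42 in that comparison, and none passed (limma adjusted p = 0.242, 0.598 and 0.172).

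**Figure D4:**
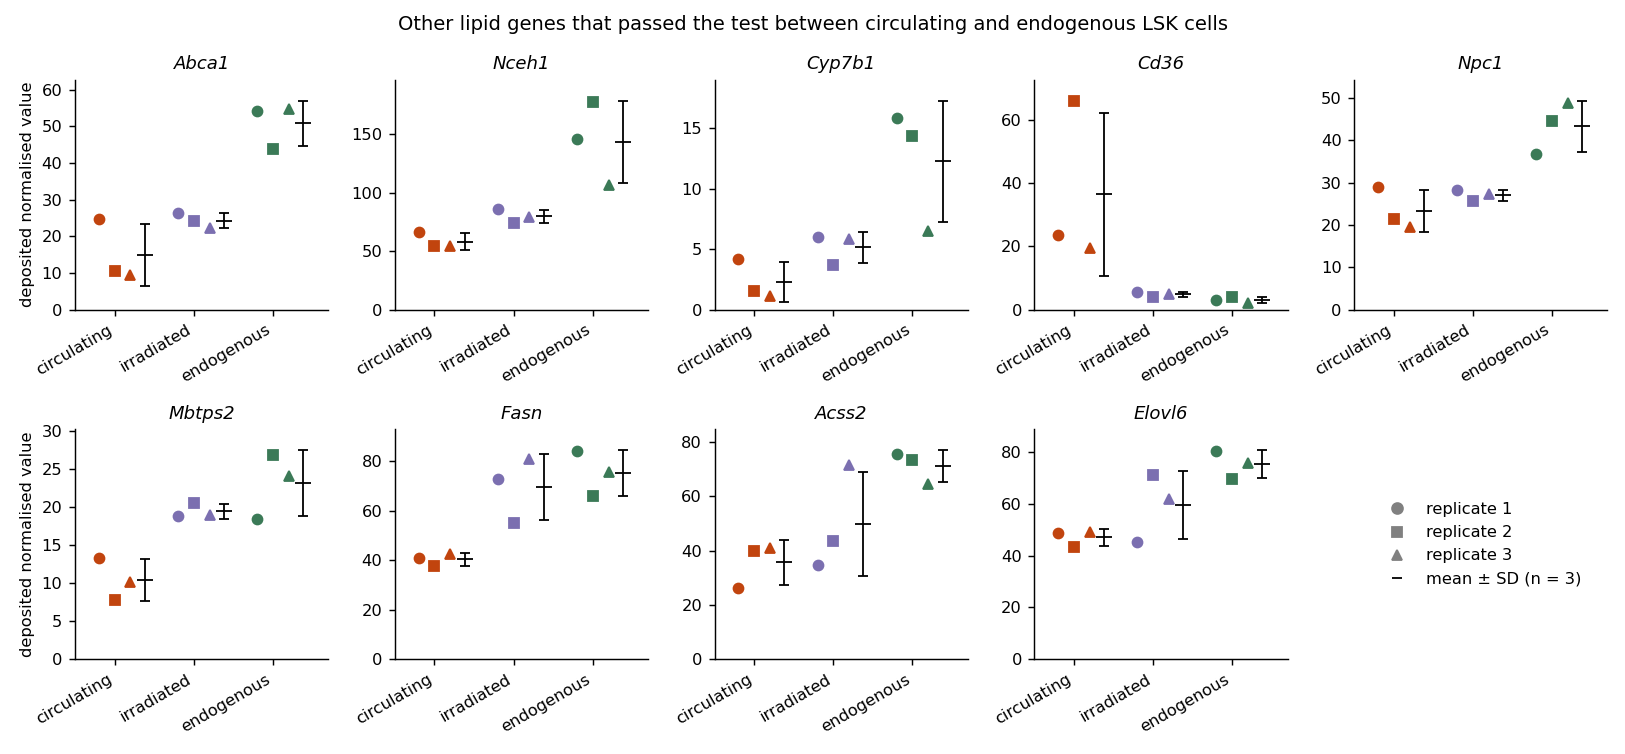
Deposited normalised values (vertical axes, each starting at 0) of the 9 other lipid genes that passed the test between circulating and endogenous LSK cells, by group. Symbols are replicates and the bars to their right are the mean ± SD of 3 libraries; Cd36 is higher in the 3 circulating libraries and the other 8 genes are lower there than in the 3 endogenous ones.

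Enzymes that branch from the isoprenoids made by Fdps, towards ubiquinone, dolichol and prenylated proteins, had 0 of 13 called in any comparison, and limma found 1 at an unadjusted p under 0.05 in circulating against endogenous cells (26.7% of all tested genes), 0 in circulating against irradiated cells (11.4%) and 1 in irradiated against endogenous cells (14.9%). Fnta, a subunit shared by some protein prenyltransferases, stood at 165.8 ± 11.0 in circulating cells, 188.6 ± 10.1 in irradiated cells and 173.6 ± 9.6 in endogenous cells. Ggps1, which extends farnesyl to geranylgeranyl diphosphate, stood at 55.9 ± 3.15 in circulating cells, 48.9 ± 3.29 in irradiated cells and 64.1 ± 14.5 in endogenous cells. Rabggta and Rabggtb, subunits of the enzyme that prenylates Rab proteins, differed by 0.29 and 0.38 between circulating and endogenous cells. In circulating against irradiated cells 0 genes of these 5 further lists were called by limma, and at an unadjusted p under 0.05 there were 3 of 13 for SREBP control, 2 of 16 for uptake and transport, 3 of 10 for efflux and storage and 2 of 10 for fatty acid synthesis, against 11.4% of all tested genes. In irradiated against endogenous cells 0 were called as well, with 1, 3, 4 and 0 of the same lists at an unadjusted p under 0.05, against 14.9% of all tested genes.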

How the data were processed

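LSK RNA from 9 libraries was isolated with a low-input kit, amplified with SMART-Seq v4 and made into Nextera XT libraries, per the labels' protocols. Build mm10 and the tools CASAVA, limma and RSEM 1.3.1 are listed, without their roles, per the submitters' processing notes. The authors deposited a normalised signal for 14461 genes, not counts: in every column 100% of values are an estimated count with 2 decimals plus 0.5, times a constant (tolerance 0.001 counts). How the authors scaled the values and filtered genes is not given in the labels or files used here. Counts were recovered from each column's smallest value and cover counting error only, because amplified reads lacking molecular identifiers may repeat 1 molecule.

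Symbols and positions came from GENCODE M21 (GRCm38), with 14405 identifiers matched and 56 not. Genes with a value of at least 1 in at least 3 libraries (13771) were tested with limma 3.58.1 (R 4.3.3), trend and robust moderation, on log2(value + 1), with all 9 libraries in 1 fit without covariates. Fold changes on this scale understate changes of low genes. The fit was tested on simulated data. The 7 genes, the gene lists and the naming rule were chosen with earlier results of these data known. The rule names the 7 genes, every called gene of 6 lipid lists, up to 4 uncalled ones per list by mean value, and 3 nearest genes per member, of which some are given for each; some genes under this rule are not reported here. Gene lists were only counted. Shared sequence was found with BLAST 2.17.0 (identity of at least 95% over at least 100 bases). Alternatives tried were other pseudocounts, filters, scaling, voom, sample weights, fits of 2 groups, a replicate block and leaving out each library. Replicate numbers were not taken as pairs.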

Additional observations from a re-analysis of the deposited data

How the results depend on the processing

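Over all alternatives run, the Fdps difference between circulating and endogenous cells stayed positive, from 0.83 to 1.39. The number of the 7 genes called there was 1, and 0 with sample weights, 0 with the 2 groups fitted alone and 0 to 1 with a library left out. In irradiated against endogenous cells it was 0, and 1 (Fdps) with sample weights and 1 with the 2 groups alone. The count over all genes in circulating against endogenous cells was 1189, and 494 with sample weights, 239 with the 2 groups alone and 257 (without endogenous replicate 1) to 2224 (without circulating replicate 1) with a library left out; only without circulating replicate 2 was it within 1.5 times of 1189. In circulating against irradiated cells it was 4, and 13 with a minimum value of 5, 11 scaled by library size alone, 8 with voom and 3 to 137 with a library left out, the highest without circulating replicate 1. In irradiated against endogenous cells it was 83, and 138 with a minimum value of 5, 897 with sample weights, 757 with the 2 groups alone and 6 to 263 with a library left out, lowest without irradiated replicate 3 or endogenous replicate 1 and highest without circulating replicate 1. Scaling by library size alone moved the median gene by -0.18 log2 units in circulating and -0.12 in irradiated against endogenous cells, and circulating against endogenous cells then had 336 higher and 816 lower calls in place of 734 and 455. No call among the 7 changed, but signs near 0 turned: Idi1 to -0.15 in circulating against endogenous, Lss to -0.007 in circulating against irradiated and Sqle to -0.11 in irradiated against endogenous cells. With sample weights Idi1 was 0.008 in irradiated against endogenous cells.

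With a library left out, signs turned only among uncalled differences near 0. In circulating against endogenous cells Hmgcs1 ran from -0.10 to 0.16, Idi1 from -0.17 to 0.26 and Lss from -0.28 to 0.12. In circulating against irradiated cells Fdft1 ran from -0.021 to 0.27, Idi1 from -0.005 to 0.15 and Lss from -0.24 to 0.33. In irradiated against endogenous cells Idi1 ran from -0.24 to 0.18, Sqle from -0.086 to 0.074 and Lss from -0.42 to 0.15. The causes were not tested.

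Same-numbered circulating and irradiated libraries share a title code, but their deviations correlated at only 0.031 to 0.18 across genes, so the numbers were not used as pairs; 6 of 9 libraries correlated best with their own number. With the replicate number as a block, 1147 genes and 1 of the 7 (Fdps) were called in circulating against endogenous cells, and 9 genes in circulating against irradiated cells, or 2 when only those 6 libraries were fitted. The block ended the calls of Mbtps2 (limma adjusted p = 0.0538), Npc1 (0.0504) and Elovl6 (0.0692). The order of levels per kilobase moved for 2 of the 7 genes with the longest transcript and for 4 with the longest protein-coding transcript, a length chosen after seeing the data.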
